A study of Rattus norvegicus with 22 samples.

Results

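Trimethylation of histone H3 at lysine 4 (H3K4me3) was compared between injured and control rat hippocampus at day 1 after traumatic brain injury (TBI). The regions studied were built from the 15000 peaks with the highest pileup in each of 4 H3K4me3 peak lists, merged over the lists where they overlapped by at least 1 base. This gave 16493 regions, of 623535 regions that arise when every peak of the 4 lists is merged. The 4 lists came from 2 sham and 2 TBI samples, all adult male Sprague-Dawley rats, hippocampus on the injured side, taken at day 1. TBI rats received a lateral fluid percussion, a pressure pulse on the exposed dura, and sham rats the same surgery and anesthesia without the pulse. The series holds 22 samples, among them the input libraries of these 4 samples and 14 RNA libraries of day 1 and day 14. The hippocampus was crosslinked whole, so a change in the share of cells that carry the mark and a change in its amount per cell cannot be told apart. The peak lists name no genes and no annotation of their build, rn5, was used, so the tissue could not be checked against marker genes in them and the regions are given by position.

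H3K4me3 is laid down by methyltransferase complexes of the KMT2 and SETD1 families and removed by KDM5 demethylases. It sits mainly on nucleosomes around the start sites of active genes, where readers such as TAF3 bind it. In the brain it is found at promoters of neurons and glia alike, and long stretches of it tend to mark genes that matter for a cell's identity.

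The libraries were not equally deep. After removal of redundant tags they held 17789038 and 18972037 tags in sham and 16062200 and 7236993 in TBI, with 28% to 39% redundant. TBI replicate 2 had the fewest tags and the most peaks, 353688 against 116241 to 235078 in the other 3 samples. The pileup, the mean height of stacked tags over a broad peak, was therefore not compared between samples as it stands. The highest pileup of a sample within a region was turned into its percentile among the 16493 regions of that sample, with 0 where the sample had no peak there. The last peak taken had a pileup of 12.15 and 11.52 in sham and of 12.33 and 5.25 in TBI, and the first peak left out had the same value in each sample. The run names written into the headers of both TBI lists say sham, whereas the sample labels say TBI. The groups follow the labels, and every direction given here rests on them.

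Most of the regions were shared by all samples. Of the 16493 regions, 13504 (81.9%) were among the highest peaks of all 4 lists, 741 of 3 lists, 890 of 2 and 1358 of 1. Both TBI lists and neither sham list placed 218 regions among their highest peaks, and both sham lists and neither TBI list 182. Counting lower peaks too, 16403 regions held a peak in every list, at a loose cutoff (MACS2 p of 0.1 for the weak parts of a peak). Regions were 207 to 23314 bases long, with a median of 2787. The percentiles of the 2 sham samples had a Spearman correlation of 0.944 over regions and those of the 2 TBI samples 0.934, while the 4 pairs of a sham with a TBI sample gave 0.920 to 0.943. These correlations are across regions of the same 4 libraries, which differ in depth. The median absolute difference of a region was 5.41 percentile points between the sham samples, 6.27 between the TBI samples, and 5.57 to 6.52 between a sham and a TBI sample.

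No region was called between TBI and sham on the percentile of the highest pileup. With limma across all 16493 regions and Benjamini-Hochberg adjustment, 0 regions (0%) had an adjusted p under 0.05, and the smallest adjusted p was 0.302. At an unadjusted p under 0.05 limma gave 511 regions higher (3.1%) and 565 lower (3.43%) in TBI. An exact permutation test of 2 against 2 samples cannot go below p = 0.333, so single regions were not tested that way. The calls depended on the fit: leaving out sham replicate 1 gave 56 calls, all lower in TBI, 30000 peaks per list gave 18 higher and 67 lower, and log2 pileup after quantile normalization gave 9 higher and 71 lower.

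Both TBI percentiles lay above both sham percentiles in 3240 regions (19.6%) and below both in 2879 (17.5%). This near balance depended on the scale: with percentiles among all peaks of a list the counts were 2532 and 240, and with a −log10 q of at least 10 they were 1941 and 2387. At a gap of at least 10 points between the groups the counts were 308 higher (1.87%) and 328 lower (1.99%), at 20 points 20 and 57, and at 30 points 2 and 16. The same counts in 2 cross pairings, each joining a sham with a TBI sample, served as a measure of noise. Sham replicate 2 with TBI replicate 1 against the other 2 samples had 245 regions (1.49%) at 10 points in both directions together. Sham replicate 2 with TBI replicate 2 against the other 2 samples had 470 (2.85%), against 636 (3.86%) for TBI against sham. At 20 points the cross pairings gave 16 and 41 regions and the labelled groups 77. The SD over regions of the difference of means was 8.15 points for TBI against sham, with a median of 0.23, and 6.60 and 7.58 points in the cross pairings. Without a smallest gap, 6119 regions (37.1%) did not overlap between TBI and sham, against 4606 (27.9%) and 5755 (34.9%). In each of these totals TBI against sham was above both cross pairings. In 1 direction alone it was not, since sham replicate 2 with TBI replicate 2 was higher by 20 points in 37 regions, against 20 regions higher in TBI.

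**Figure D1:**
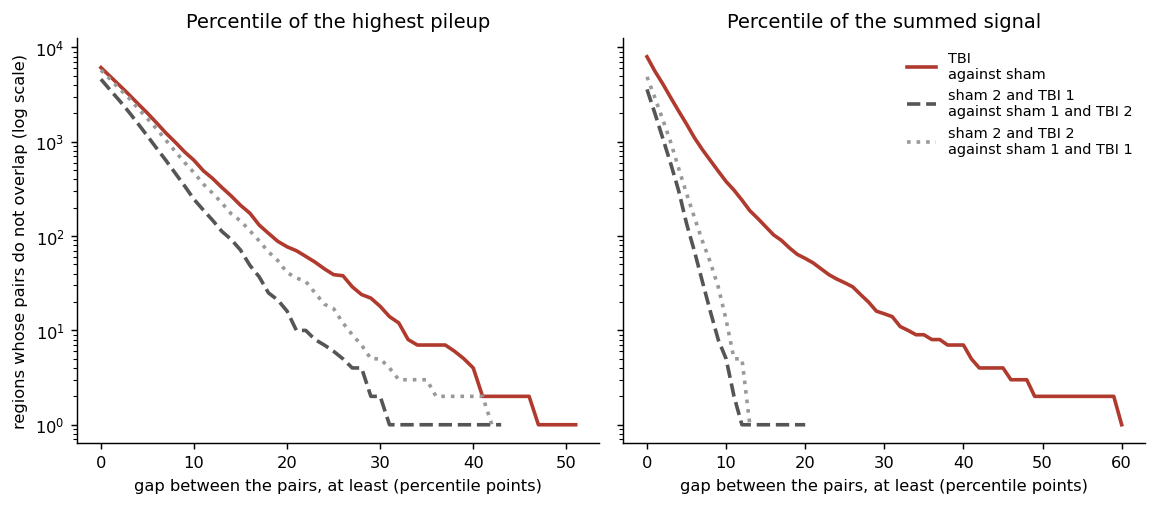
Number of regions (log scale) whose pairs of samples do not overlap, against the smallest gap between the pairs in percentile points, for TBI against sham and for the 2 cross pairings of the same samples. On the highest pileup (left) TBI against sham has 636 regions at 10 points against 245 and 470. On the summed signal described further on (right) it has 379 regions against 5 and 13.

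Among regions with a peak in all samples, those with the widest gap upward stood near the middle of the order in sham and in its upper part in TBI, with 1 exception near the foot. The widest was chr6:137759410-137764662, 5253 bases, with percentiles of 41.5 and 38.9 in sham and 79.2 and 88.2 in TBI. Its pileups were 27.2 and 22.4 in sham and 51.9 and 25.6 in TBI. The second, chr10:106607332-106615356, 8025 bases, stood at 31.8 and 32.8 in sham and at 68.9 and 65.4 in TBI. In both regions the samples of a group were closer to each other than to any sample of the other group. Choice by the widest gap favours this. The difference of means was 43.5 points (SE 8.22) in the first and 34.9 points (SE 6.31) in the second, each with a limma adjusted p of 0.302. The region chr6:155104644-155108307 had 35.7 and 29.0 in sham and 65.6 and 68.3 in TBI. For chr2:184998953-185003936 the sham values were 39.6 and 39.6 and the TBI values 68.1 and 76.5. At chr9:117003197-117006445 they were 52.0 and 53.5 in sham and 81.4 and 86.0 in TBI. All 3 were near or below the middle of the sham order and in the upper part of the TBI order. The region chr4:233246525-233249904 had 56.2 and 62.3 in sham against 89.8 and 93.9, and chr6:6858541-6860807 had 61.1 and 66.0 against 92.5 and 92.2. The exception was chr1:82586724-82589820, 3097 bases, which was near the foot of the sham order, at 0.718 and 0.552, and at 27.3 and 29.9 in TBI.

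Since the pileup of a broad peak is a mean over its length, the length that peaks covered in each sample was set beside these values. In chr6:137759410-137764662 peaks covered 5237 and 5228 bases in sham and 3862 and 2481 in TBI, so the higher mean came with shorter peaks. In chr1:82586724-82589820 they covered 1071 and 1267 bases in sham and 3097 and 2311 in TBI, and in chr10:106607332-106615356 5355 and 5045 against 7974 and 7225. Here height and length were both greater in TBI. Over all 308 regions higher by 10 points or more, the ratio of covered bases, TBI to sham, had a median of 0.911 and was below 1 in 66.9%, against a median of 1.0 and 49.3% over all regions. For the 328 lower regions the median was 1.0 and the share 50.0%, which joined 82 regions in the runs described below (median 0.919, 92.7% below 1) with 246 elsewhere (1.066, 35.8%). When height and length were combined into a summed signal (pileup times length, added over the peaks in a region), 5 of the 8 named higher regions had a lower mean rank in TBI than in sham, and the other 3 kept their direction. Of all 308, 183 (59.4%) were higher in both TBI samples on the summed signal and 29 (9.42%) lower. Over all regions the shares were 26.9% and 21.5%. The 308 were chosen by their pileup, which the summed signal contains.

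**Figure D2:**
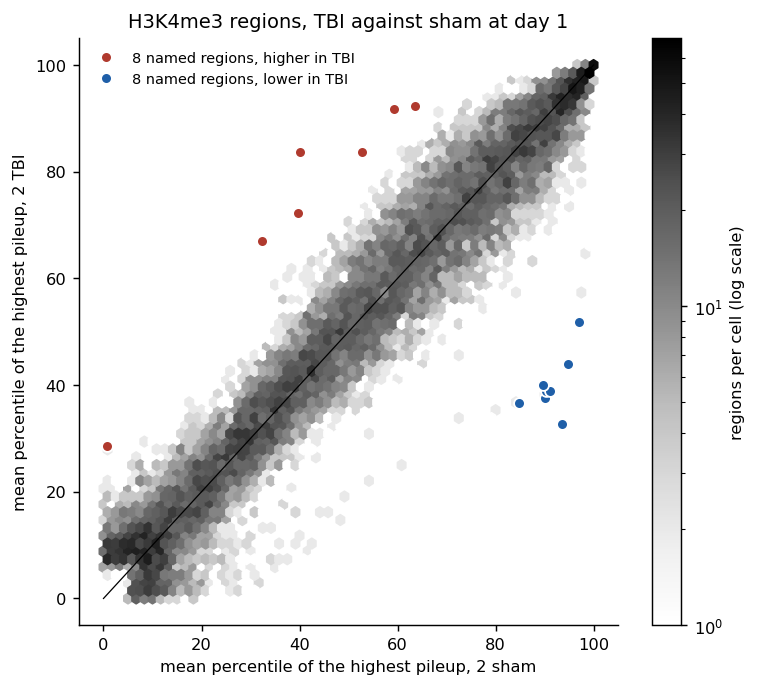
Mean percentile of the highest pileup over the 2 sham samples (horizontal) and the 2 TBI samples (vertical) for all 16493 regions, shaded by the number of regions per cell on a log scale, with the 8 named regions of each direction as points. Most regions lie along the diagonal, where both means are equal. The named higher regions lie above it and the named lower ones, all with sham means of 84.9 or more, lie below it on the right.

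The widest gaps downward were larger than those upward. Both members of a pair on chromosome 20, 14.0 kb apart, were among the 8 widest. The first, chr20:42613974-42617483, 3510 bases, had percentiles of 97.1 and 89.9 in sham and 26.8 and 38.8 in TBI, with pileups of 61.0 and 46.2 against 20.3 and 11.2. Its difference of means was -60.7 points (SE 8.63, limma adjusted p 0.302). The second, chr20:42595054-42599950, stood at 89.8 and 99.9 in sham and at 37.5 and 50.3 in TBI. Covered lengths hardly differed here (3253 and 3510 bases in sham, 3481 and 3483 in TBI for the first), so it was the height that was lower. The region chr13:38709322-38710496 had 83.9 and 96.4 in sham and 37.5 and 37.8 in TBI. On chromosome 16, chr16:22004767-22009432 had 88.9 and 91.5 against 29.5 and 48.2, and chr16:21721814-21723450 had 82.1 and 97.1 against 36.8 and 43.4. In these 5 regions both TBI values were at most 50.3 and both sham values at least 82.1. The region chr1:188182754-188183883 stood at 83.5 and 98.8 in sham and at 43.5 and 34.2 in TBI. At chr1:56923374-56927084 the values were 94.0 and 99.9 against 42.5 and 60.96. Sham replicates were further apart at chr5:11836012-11837038, with 70.1 and 99.7 against 37.1 and 36.1 in TBI. In 7 of the 8 lower regions sham replicate 2 was above sham replicate 1. The summed signal kept the direction of all 8.

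**Figure D3:**
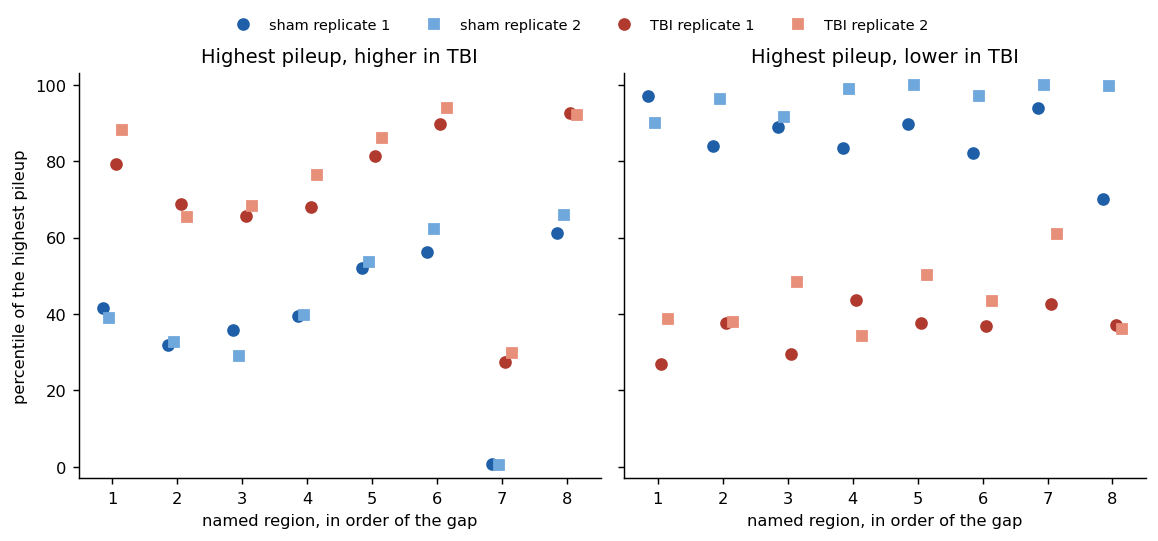
Percentile of the highest pileup in each of the 4 samples for the 8 named regions higher in TBI (left) and the 8 lower in TBI (right), numbered in order of the gap between the groups. The groups do not overlap, which was a condition of the choice, and the distance between samples of a group varies, most at the eighth lower region, where sham stands at 70.1 and 99.7. Sham replicate 2 is the highest sample in 7 of the 8 lower regions, and the seventh higher region starts near 0 in sham.

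Some of the regions lower in TBI by 10 points or more lay in long runs along the chromosome, and those higher in TBI formed only short runs. The distance of 250 kb used here to join neighbours was chosen after the values were seen. Of the 328 lower regions, 82 (25.0%) fell into 7 runs of 5 or more, the largest with 29. The 308 higher regions formed no run of more than 3. Most regions had no such neighbour, 192 of the lower and 257 of the higher ones. The largest run, chr1:187508384-188256970, spanned 749 kb and held 63 regions, of which 55 were lower in TBI at any gap and 0 higher. Its median percentiles were 28.8 and 51.0 in sham and 14.0 and 16.8 in TBI. The run at chr16:21636394-22021095, 385 kb, held 55 regions with 43 lower and 0 higher, with medians of 9.55 and 24.7 in sham and 2.92 and 3.84 in TBI. In chr1:56859116-57237250, 22 of 28 regions were lower, with medians of 26.5 and 37.7 against 5.13 and 18.8. At the tip of chromosome X, in chrX:95714-359280, all 7 regions were lower, with medians of 27.9 and 33.9 against 4.23 and 9.19. The other 3 runs, chr17:91074759-91136606, chr1:100124880-100170561 and chr13:38619820-38834800, held 8, 5 and 5 of the lower regions.

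The sham samples also differed inside these runs. Sham replicate 2 was above sham replicate 1 in all 82 lower regions of the runs (100%), against 46.1% of all regions and 132 of the 246 lower regions elsewhere (53.7%). Of the 199 regions inside the runs, 161 (80.9%) were lower in both TBI samples and 0 higher in both, against 17.5% and 19.6% of all regions, but the runs were drawn around lower regions and 82 of the 161 are lower by that choice. Regions inside the runs were short, with a median of 1008 bases against 2801.5 outside. Outside the runs the count at 10 points was 308 higher and 246 lower (1.51%). The part of this difference between the sham samples in the result was not tested.

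**Figure D4:**
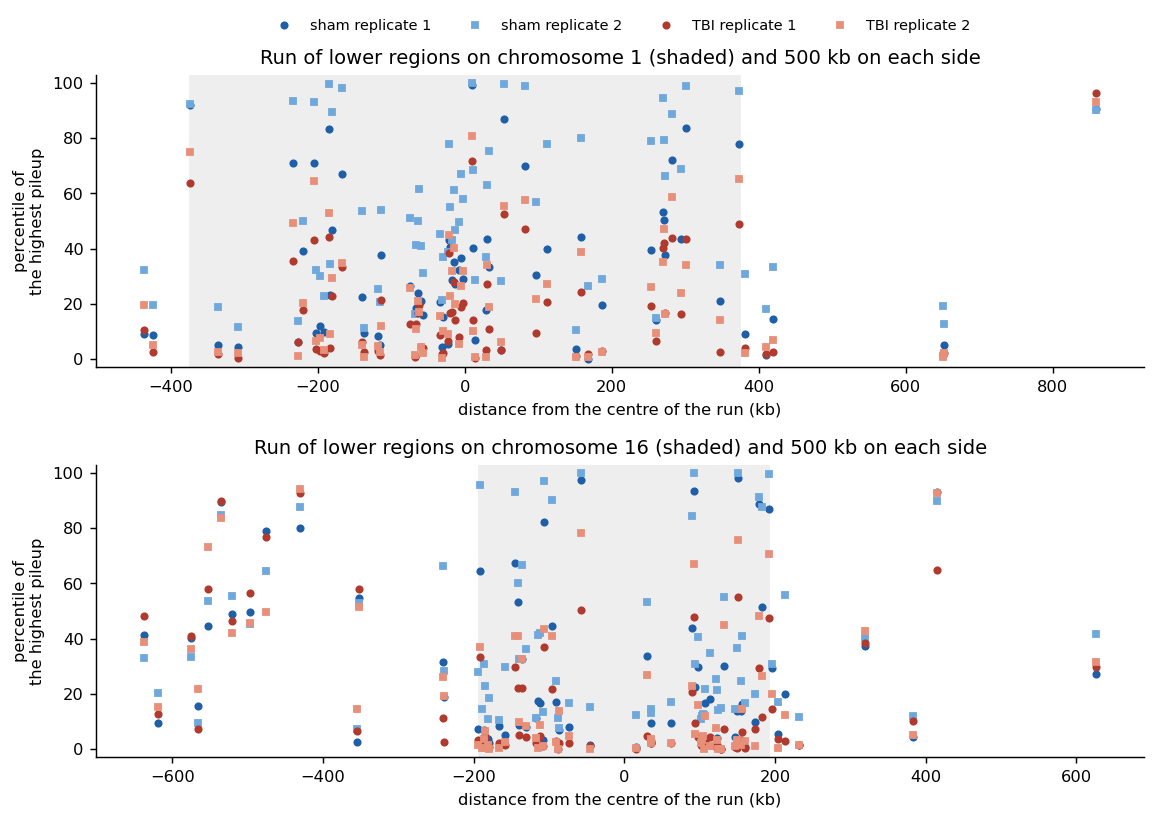
Percentile of the highest pileup in the 4 samples for every region in the runs of lower regions on chromosome 1 (29 regions lower by 10 points or more) and chromosome 16 (18 such regions), with 500 kb on each side, by distance from the centre of the run in kb. Inside the shaded runs the sham replicate 2 squares sit highest, sham replicate 1 below them, and both TBI samples lowest. Beyond the runs the 4 samples intermingle.

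The summed signal, added after the values were seen, set the labelled groups further apart from the cross pairings than the highest pileup did. Its rank within a sample had a Spearman correlation of 0.985 between the sham samples and of 0.985 between the TBI samples, and of 0.967 to 0.978 between a sham and a TBI sample. At a gap of at least 10 points, 188 regions (1.14%) were higher and 191 (1.16%) lower in TBI, against 4 and 1 in the first cross pairing and 10 and 3 in the second. With limma over all 16493 regions, 112 were called higher (0.679%) and 57 lower (0.346%) at an adjusted p under 0.05. These calls did not hold under every fit. Without TBI replicate 1 there were 0 calls with limma (1270 higher and 1228 lower at an unadjusted p under 0.05), without TBI replicate 2 3 higher and 5 lower, and without sham replicate 2 10 and 6. Without sham replicate 1 the balance turned, with 53 higher and 144 lower. With the 10000 highest peaks of each list there were 0 calls (630 and 743 unadjusted), and without a trend of the variance 1.

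The summed signal contains the covered length and the pileup, so both are given for the called regions as a description only. Among the 112 called higher, the median summed percentile was 15.7 and 16.2 in sham and 39.8 and 36.7 in TBI, and peaks covered a median of 1932 and 2013 bases in sham against 4239 and 3271.5 in TBI. In 104 of the 112, peaks covered more bases in both TBI samples than in either sham sample, against 2401 of all 16493 regions. The percentile of the highest pileup was higher in both TBI samples than in either sham sample in 98 of the 112, against 19.6% of all regions. The regions called higher had a median length of 4281.5 bases and lay on 20 chromosomes. None was inside the 7 runs, but those were drawn around lower regions and held only 199 of the 16493 regions. Of the 57 called lower, 2 were inside them. The 57 regions called lower were long, with a median of 5828 bases and 45 of them of 4 kb or more. Their median summed percentile was 84.4 and 86.4 in sham and 57.2 and 60.3 in TBI. Peaks covered a median of 5569 and 5618 bases of them in sham and 5144 and 4183 in TBI. In 38 of the 57, peaks covered fewer bases in both TBI samples than in either sham sample, against 2026 of all 16493 regions. The percentile of the highest pileup was lower in both TBI samples than in either sham sample in 37 of the 57, against 17.5% of all regions. Its medians over the 57 were close, 29.4 and 29.1 in sham and 23.7 and 26.8 in TBI.

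Of the called regions, the 8 with the widest gap on the summed scale were chosen in each direction after the values were seen. The widest upward was chr7:12667780-12674173, 6394 bases, with summed percentiles of 14.2 and 16.3 in sham and 79.7 and 76.9 in TBI (difference of means 63.0 points, SE 3.20, limma adjusted p 0.00267). Peaks covered 1710 and 1757 bases of it in sham and 6394 and 5133 in TBI, at pileups of 9.97 and 12.4 against 26.9 and 13.1. At chr10:76193397-76198656 the summed percentile was 0.334 and 4.22 in sham and 60.2 and 52.3 in TBI. Here a sham signal at the foot of the order stood against a TBI signal above its middle. The region chr1:82493154-82496432, 90.3 kb from the named region at chr1:82586724-82589820, had summed percentiles of 0.140 and 0.170 in sham and 33.7 and 35.5 in TBI, with 200 bases covered in each sham sample and 3174 and 3203 in TBI. That neighbour itself stood at 4.24 and 4.43 against 36.1 and 36.4. Similarly, chr4:58120130-58125684 had 0.891 and 1.36 in sham and 39.7 and 37.0 in TBI. These 4 regions were at 4.43 or below in sham and at 33.7 or above in TBI. At chr3:99421948-99426858 the values were 27.5 and 28.3 against 69.97 and 71.5, and at chr11:36456480-36464968 36.5 and 47.2 against 79.0 and 79.1. The region chr10:106607332-106615356, named above for its pileup, stood at 57.0 and 61.6 in sham and at 98.8 and 98.9 in TBI.

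Downward, 3 of the 8 were neighbours on chromosome 5. At chr5:81806685-81817595, 10911 bases, the summed percentile was 64.8 and 93.5 in sham and 0 and 5.57 in TBI. TBI replicate 1 had no peak there, and TBI replicate 2 had peaks over 1132 bases with a highest pileup of 2.98. The sham peaks were wide but low, over 10626 and 10911 bases with highest pileups of 10.1 and 15.4 (percentiles 5.37 and 22.4). The difference of means of the summed percentile was -76.4 points (SE 8.18, limma adjusted p 0.0137). At chr5:81787127-81795538 the values were 47.2 and 79.2 against 0 and 1.73, and at chr5:81795882-81802659 55.7 and 86.4 against 6.60 and 14.9. The stretch chr5:81787127-81825455, 38.3 kb, held 4 regions and all 4 were called lower. A like stretch, chr16:64552921-64602498, 49.6 kb, held 7 regions, all lower in TBI, with median summed percentiles of 37.6 and 71.2 in sham and 0.606 and 0.794 in TBI. Its region chr16:64583754-64589581 was called, at 41.2 and 75.2 against 0.606 and 0.794. In both stretches the median of each TBI sample was at 3.65 or below, and that of sham replicate 2 was above that of sham replicate 1. The region chrX:117350-124827, inside the run at the tip of chromosome X, had 81.3 and 97.6 against 39.0 and 53.7.

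The remaining 3 lower regions kept peaks over most of their length in TBI. At chr19:10418718-10425788 the summed percentile was 89.2 and 86.8 in sham and 55.7 and 59.96 in TBI, over 6795 and 6630 covered bases against 6824 and 6351. At chr13:95192996-95200795 it was 79.1 and 79.9 against 51.3 and 48.3, and at chr10:86099340-86103831 76.6 and 77.0 against 49.6 and 50.6. In these 3 the samples of a group lay within 5 points of each other.

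**Figure D5:**
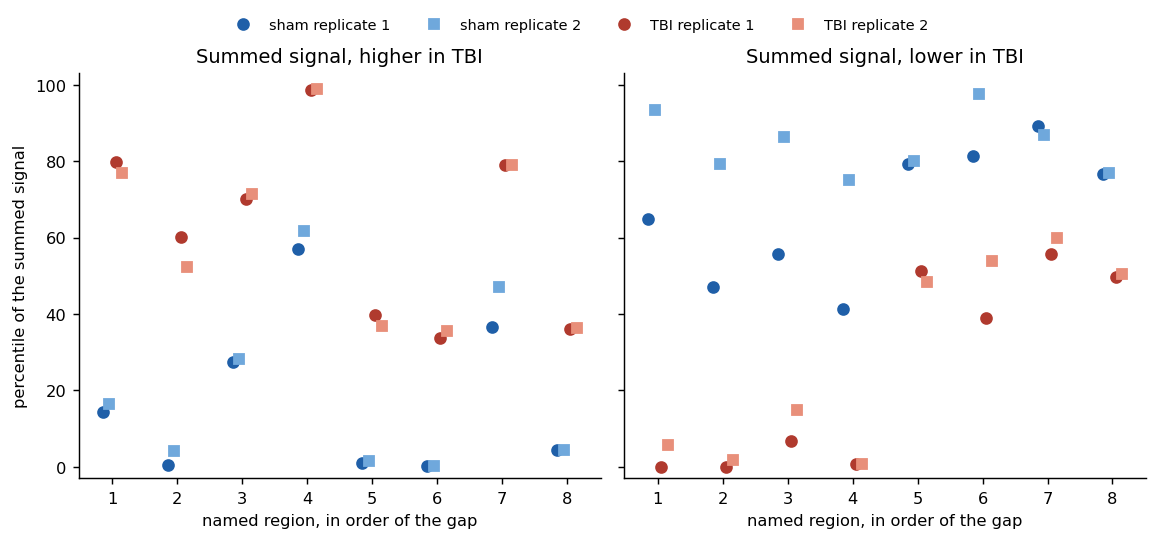
Percentile of the summed signal (pileup times length over the peaks of a region) in each of the 4 samples for the 8 called regions with the widest gap higher in TBI (left) and lower in TBI (right), numbered in order of the gap. Samples of a group lie close together on the left. On the right the first 4 regions are at 14.9 or below in both TBI samples, and the 2 sham samples lie apart from each other.

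Complete absence of a peak from a group was rare at the loose cutoff of these lists, and concerned weak peaks. The weak parts of a peak were called at a MACS2 p of 0.1, so a region can hold a peak with little signal. Of the 16493 regions, 10 had no peak in either sham list and 13 none in either TBI list. The widest gap without a sham peak was at chr16:24967063-24967405, 343 bases, with pileups of 11.35 and 5.28 in TBI (percentiles 7.49 and 10.8). At chr7:54801256-54803158 the TBI percentiles were 14.8 and 3.11, and at chr18:36702571-36702926 1.66 and 34.4. Without a TBI peak, chr7:10427374-10427745 had sham percentiles of 6.25 and 13.1, chr7:10435933-10436552 6.11 and 22.4, and chr1:71331214-71331633 6.01 and 18.1. None of these 6 differences passed limma, with adjusted p from 0.767 to 0.849.

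The regions with the highest mean percentile over the 4 samples are near the top of every sample by that choice, and their pileups varied. The top of the order on the assembled chromosomes was chr19:67047651-67048969, with pileups of 234.8 and 249.2 in sham and 232.8 and 184.0 in TBI. It was followed by chr4:142116033-142116777, with 214.8 and 214.5 against 214.8 and 211.0, chr3:43007-43816, chr5:154878078-154879084 and chr1:3769987-3770645. They were 659 to 1319 bases long. The mitochondrial sequence, named after its values were seen, was 1 peak over its whole 16313 bases in each list, with pileups of 279.7 and 169.6 in sham and 148.0 and 179.8 in TBI. Mitochondrial DNA carries no histones, so this value is not one of H3K4me3, and on the assembled chromosomes alone limma gave 0 calls as well, with 511 higher and 564 lower at an unadjusted p under 0.05. The 3 longest regions, of 23314, 19540 and 16983 bases, were of middle height. In chr6:79522108-79545421 the percentiles were 64.3 and 57.6 in sham and 57.3 and 68.3 in TBI. In chr2:11720888-11740427 they were 75.5 and 62.5 against 66.8 and 50.6, and in chr7:126265892-126282874 71.0 and 60.3 against 57.3 and 43.7. The groups overlapped in the first 2, and the gap in the third was 3.07 points.

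By length, 1464 regions under 1 kb had the widest spread of the TBI minus sham difference, with an SD of 10.4 points, and 11255 regions of 1 to 4 kb the narrowest, with 7.69. The 3774 regions of 4 kb or more had an SD of 8.39 and a median of -0.67 points, against 0.56 for those of 1 to 4 kb. Short regions gave 24 (1.64%) higher and 61 (4.17%) lower at a gap of 10 points, regions of 4 kb or more 80 (2.12%) and 95 (2.52%). By chromosome, the median difference went from -0.69 points on chromosome 16 to 1.12 on X, and the SD from 6.77 on chromosome 19 to 10.2 on 16. The 7 runs feed these classes: their regions were short, with a median of 1008 bases. The run on chromosome 16 held 18 of the 22 regions of that chromosome lower by 10 points or more. Of 5 classes of equal size by mean percentile, the SD was lowest in the highest class, at 6.22, and highest in the next one, at 9.76. The cross pairings were also widest in that next class, with 8.43 and 9.35. They were narrowest in the lowest class, with 5.61 and 6.37, against 5.78 and 6.59 in the highest. Regions under 1 kb also had the widest spread in both, with 6.96 and 8.49.

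The genes that write, erase and read the mark were looked up in the RNA of the same time point, as counts tested with edgeR in 2 sham and 4 TBI samples of day 1. Of a list of 33 genes, 24 were tested and 0 passed an adjusted p under 0.05 (2 at an unadjusted p under 0.05). In the same fit, 11.2% of the 12875 tested genes were called higher and 7.93% lower. A fit to the day 1 samples only called fewer genes, 557 higher and 94 lower of 12720 tested, and 0 of the list. The list's median log2 fold change was -0.05, against -0.02 over all tested genes. The 6 methyltransferases of the list are not analysed here. Among subunits of their complexes, Cxxc1, which binds unmethylated CpG sites for the SETD1 complexes, had log2 CPM of 6.03 and 6.09 in sham and of 6.20 to 6.60 in TBI, with no overlap (log2 fold change 0.39, SE 0.17, edgeR adjusted p 0.119). Wdr82, which ties SETD1 to RNA polymerase, had 4.17 and 4.86 in sham and 3.39 to 4.23 in TBI, with overlap (-0.57, SE 0.24, edgeR adjusted p 0.104). Dpy30, a core subunit, overlapped as well (0.37, SE 0.22). The demethylases Kdm5a (-0.21, SE 0.15) and Kdm5b (-0.24, SE 0.14) did not pass either.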

How the data were processed

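H3K4me3 ChIP-seq of 2 sham and 2 TBI hippocampi of day 1 and RNA-seq of 14 samples were used. Per the labels and the study's methods, the authors trimmed reads with Trim Galore 0.5.0, aligned them to rn5 with BWA 0.7.16a, discarded duplicates (SAMtools 1.8) and ran MACS2 2.1.2 in broad mode on each sample against its own input. Per the file headers, 1 genome-wide background replaced a local one. The deposited pileup of a peak is a signal (mean tag height), the deposited fold enrichment is its ratio to background, and the deposited −log10 p and −log10 q are those of MACS2. By the headers q should be missing, but its column is filled. RNA counts are the authors' featureCounts 1.5.0 output on STAR 2.4.2a alignments, deposited without normalization.

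Peaks were merged and ranked in Python 3.11.15 (numpy 2.4.6, pandas 2.3.3, scipy 1.17.1, matplotlib 3.10.9). Percentiles were tested with limma 3.58.1 (lmFit, eBayes with trend) in R 4.3.3, two-sided, Benjamini-Hochberg over all regions, threshold 0.05. RNA counts were tested with edgeR 4.0.16 (TMM, filterByExpr, quasi-likelihood, 1 mean per group over 14 samples). Log2 CPM used a prior count of 2. Both tests and the merging were tested on simulated data. Samples were grouped by labels. P-values measure the spread between these samples. Tag totals limit precision, most in TBI replicate 2.

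Named regions were, on chromosomes 1 to 20 and X, the 8 of each direction with the widest gap among regions with a peak in all lists, the 3 per group with the widest gap without a peak in the other, the 5 highest and the 3 longest. Named genes were list members that passed, the 3 largest changes and the Kdm5 genes. Regions, lists and tests were chosen with earlier results of these data known. Alternatives were 10000 or 30000 peaks per list, a 200-base overlap, fold enrichment, a −log10 q of at least 10, percentiles among all peaks, assembled chromosomes, peaks in all lists, quantile normalization, no trend, the replicate numbers as a block, each sample left out, and for RNA RLE factors, DESeq2 1.42.0, no filter and only day 1. The summed signal with its own alternatives, the runs left out and a block without trend were added after seeing the data. Sequences and genes of the regions are not reported here, since no rn5 genome was used.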

Additional observations from a re-analysis of the deposited data

How the results depend on the processing

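The count of regions called on the highest pileup, 0 with limma, stayed 0 with 10000 peaks per list, fold enrichment, a −log10 q of at least 10, percentiles among all peaks, assembled chromosomes, peaks in all lists, no trend and without the runs. Fold enrichment over 1 genome-wide background ranks regions almost as the pileup does, with 307 and 327 regions 10 points apart. It was therefore hardly a separate alternative. The count of calls was 1 at an overlap of 200 bases, 85 with 30000 peaks, 80 after quantile normalization and 169 on the summed signal. Leaving out 1 sample gave 0 to 56.

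Regions at least 10 points apart, 308 higher and 328 lower, numbered 2244 and 2924 with 30000 peaks, 34 and 33 with percentiles among all peaks, and 188 and 191 on the summed signal. With 1 sample left out, fewer values have to be apart, and there were 908 to 1454 higher and 980 to 1167 lower. The SD over regions, 8.15 points, was 12.04, 19.11, 10.37, 5.20 and 5.86 with 10000 peaks, 30000 peaks, a −log10 q of at least 10, percentiles among all peaks and the summed signal, and 9.07 to 10.17 with 1 sample left out. The median, 0.23 points, was -0.86 with a −log10 q of at least 10, 1.8 among all peaks, and -0.25 to 0.76 with 1 sample left out.

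On the summed signal, 112 calls higher and 57 lower became 0 and 0 with 10000 peaks, 16 and 7 with 30000, 1 and 0 without a trend, and 0 to 53 and 0 to 144 with 1 sample left out. The cause was not tested.

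Replicate numbers are shared between the groups. Deviations of same-numbered samples had a correlation of 0.138 over regions (0.129 over genes for RNA replicates 1 and 2). With 2 samples per group this cannot show whether same-numbered samples were handled together, and the labels give only the number. The replicate block gave 260 calls on the highest pileup (43 higher, 217 lower), 0 with a block and no trend, 515 higher and 842 lower on the summed signal, and 1 gene of the RNA list called lower. In that RNA fit, 1178 of all 12875 tested genes were called lower.

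The RNA list, 0 called lower, gave 0 to 2 with 1 sample left out, and 0 called either way under RLE factors, DESeq2, no filter and only day 1. For comparison, 824 to 1467 of all tested genes were called lower with 1 TBI sample of day 1 left out (12820 to 12845 tested). Of 360 values for named differences under alternatives, 308 kept direction and call, 47 kept direction and passed the threshold, and 5 turned, all on the summed signal: chr6:137759410-137764662 (-11.3 points), chr6:155104644-155108307 (-7.01), chr2:184998953-185003936 (-6.84), chr4:233246525-233249904 (-1.96) and chr6:6858541-6860807 (-0.49). The fits without a trend or with a block leave the difference itself unchanged, so its direction could not turn in them. The named regions with a gap were chosen as not overlapping between the groups. That choice favours the same direction with 1 sample left out, so these counts are a description only. Kdm5a ranged from -0.43 to 0.05 with 1 sample left out, turning without sham day 1 replicate 2. Each group had 2 samples, and TBI replicate 2 had 7236993 tags. In the main fit, the difference of -60.7 points at chr20:42613974-42617483 did not pass limma on the highest pileup (adjusted p 0.302). From the same 4 samples, that region passed limma with 30000 peaks per list (adjusted p 1.85e-05), after quantile normalization (0.00423) and with the replicate block (0.000121). Why the fits differ was not tested.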
